A study of Mus musculus with 4 samples.

Results

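Fibroblast-like cells of the mouse testis were examined, a small population marked by transcripts of *Clec3b*, *Lum* and *Dpt*. Of the 29592 barcodes kept from 4 single-cell RNA-sequencing libraries, 535 were fibroblast-like cells. They were chosen by expression: a barcode needed at least 4 UMIs (unique molecular identifiers, each standing for 1 captured RNA molecule) of *Clec3b*, *Lum* and *Dpt* together, with at least 2 of the 3 genes detected. It could hold at most 2 UMIs of *Dazl*, a germ-cell gene, and fewer than 20 UMIs per 10000 of the smooth-muscle genes *Acta2*, *Myh11*, *Tagln*, *Myl9* and *Actg2*. Barcodes entered the rule when they had more than 1000 detected genes and less than 10% of their UMIs from mitochondrially encoded genes.

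Fibroblasts are the connective-tissue cells that make collagens, proteoglycans and elastic fibres and release growth factors to their neighbours. In the testis they lie in the interstitium, between the seminiferous tubules, together with Leydig cells, vessels and macrophages. *Clec3b* encodes tetranectin, a plasminogen-binding lectin of the matrix, *Lum* encodes lumican, a small leucine-rich proteoglycan that binds collagen fibrils, and *Dpt* encodes dermatopontin, which helps collagen fibrils to assemble.

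The libraries came from testes of C57BL/6N pups at postnatal day 15, from 2 wild-type and 2 *Meioc*-null mice, with 1 testis per pup. A batch was a wild-type and a *Meioc*-null littermate processed together, and replicate 1 of both genotypes was taken as batch 1 from the shared number. MEIOC is a germ-cell protein that works in a complex with YTHDC2 and RBM46 as germ cells enter meiosis, and the *Meioc* tm1.1Dpc allele removes it. Both genotypes also carried 1 *Hspa2* tm1Dix allele and 2 copies of a ROSA26-tdTomato reporter whose stop cassette was intact. During dissociation the tubules were allowed to settle and the first supernatant, which holds the interstitium, was thrown away. The fibroblast-like cells are those that were left after that step, and their position in the tissue was not measured. The study asked what MEIOC does in germ cells, so the genotype comparison below describes cells that are not the ones it was designed for.

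Wild type replicates 1 and 2 held 125 and 169 fibroblast-like cells, and *Meioc*-null replicates 1 and 2 held 107 and 134. Wherever 4 values follow a gene below, they are given in that order. The cells had medians of 8384 to 9822 UMIs and 2848 to 3121 genes per library, and their UMIs summed to 938392 to 1502176 per library. Levels are in CPM, the UMIs of a gene per 1000000 UMIs summed over the fibroblast-like cells of a library, and likewise for the other cell classes. Reads were taken from the 3′ end, so 1 molecule counts as 1 UMI whatever the length of its transcript. Each pair of libraries shared 12 to 16 kept barcode sequences. Doublet scoring removed 0, 2, 2 and 0 of the fibroblast-like cells when it was applied as an alternative. In wild type replicate 1 it therefore kept a barcode with 513 UMIs of Sertoli-cell genes, described below.

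The rule fixed the levels of *Clec3b*, *Lum* and *Dpt*, which are given as a description. *Clec3b* (chromosome 9, bases 123150946 to 123157432 of GRCm38) was at 1110, 1264, 1032 and 951 CPM and had a UMI in 97.0 to 99.2% of the cells. *Dpt* (chromosome 1, 164796644 to 164824266) was at 246, 267, 245 and 221 CPM and was detected in 82.8 to 87.0%. *Lum* (chromosome 10, 97565128 to 97572703) was at 178, 234, 195 and 243 CPM and was detected in 50.4 to 53.3%. All 3 genes were detected together in 32.8 to 38.5% of the cells, and *Clec3b* gave 67.2 to 72.4% of their UMIs. Most cells lay well above the limit of the rule, with medians of 14, 14, 12 and 11 UMIs of the 3 genes. Just inside the limit, the 6, 4, 8 and 6 cells with exactly 4 UMIs had 3599, 3252, 4215 and 5045 CPM of *Dcn*. Just outside it, the 3, 5, 7 and 5 barcodes with exactly 3 UMIs that met the rest of the rule had 4241, 4846, 3481 and 4301 CPM of *Dcn*, so barcodes on both sides of the limit carried this fibroblast transcript at similar levels.

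The identity of the cells was read from 18 pan-fibroblast genes, none of them used by the rule, although the choice of cells by 3 matrix genes favours cells rich in such transcripts. In wild-type cells 14 of the 18 reached 20 CPM, and all 14 were higher than in the peritubular myoid cells, the contractile cells around the tubules. *Dcn*, which encodes the collagen-binding proteoglycan decorin, was at 5144, 5885, 5995 and 5901 CPM and had a UMI in every cell before thinning. *Col1a2* and *Col1a1*, the chains of type I collagen, had wild-type means of 3524 and 2250 CPM, against 2346 and 1020 CPM in peritubular myoid cells. *Gsn*, which encodes the actin-severing protein gelsolin, was at 2476, 2209, 2980 and 1823 CPM. *Pdgfra*, the platelet-derived growth factor receptor of mesenchymal cells, was at 504, 634, 728 and 704 CPM, and the stromal surface gene *Cd34* was at 566, 485, 573 and 484 CPM. Of these genes *Gsn* spread most across the 4 libraries. *Thy1*, *Fap* and *S100a4*, fibroblast genes of other tissues, stayed below 12 CPM in every library.

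Markers of macrophages, of mesothelium and duct epithelium, of steroidogenic Leydig cells and of pericytes were low or at 0. The 7 macrophage genes summed to 1.53, 1.33, 2.13 and 2.98 CPM, against a wild-type mean of 17176 CPM in macrophages, and *Adgre1* and *Itgam* were at 0 in all 4 libraries. The 8 genes of mesothelium and duct epithelium summed to 1.33 to 5.35 CPM, and *Krt8*, *Krt18*, *Pax8* and *Cdh1* were at 0 throughout. The 5 steroidogenic Leydig genes (*Cyp11a1*, *Star*, *Insl3*, *Cyp17a1* and *Hsd3b1*) summed to 16.0, 2.66, 5.33 and 12.7 CPM, and *Cyp17a1* was at 0 in every library. The 6 pericyte genes summed to 38.2, 49.3, 56.5 and 43.2 CPM, mostly from *Cspg4*, while *Kcnj8* was at 0.

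The endothelial and Schwann-cell lists were present mainly through 1 gene each. Of 7 endothelial genes, *Cdh5*, which encodes VE-cadherin, was at 135, 156, 158 and 138 CPM, while *Kdr* and *Pecam1* were at 0 in 3 libraries and at 2.1 and 3.2 CPM in *Meioc*-null replicate 1. *Ly6c1*, which is also on the *Pi16*-type list below, was at 13.9 to 34.4 CPM, and the other endothelial genes stayed below 7 CPM. After each cell was thinned to 3000 UMIs, so that depth was equal, *Cdh5* was detected in 34.7 to 39.1% of the fibroblast-like cells and in 0.333 to 0.867% of germ cells (69.9 to 78.2% and at most 2.73% without thinning). Of 4 Schwann-cell genes, *S100b*, which encodes a calcium-binding protein, was at 182, 222, 182 and 226 CPM, while *Sox10* was at 0 in every library.

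*Dlk1*, together with *Cyp11a1*, marked fetal Leydig cells in the study. It encodes a non-canonical Notch ligand and was on the Leydig list, yet it was at 1097, 1269, 1281 and 1097 CPM in fibroblast-like cells. Its wild-type mean was 1183 CPM there, 12.5 CPM in Leydig cells and 11.9 CPM in peritubular myoid cells. *Dlk1* was thus high in cells whose steroidogenic genes were near 0 and low in the cells with steroidogenic transcripts.

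**Figure D1:**
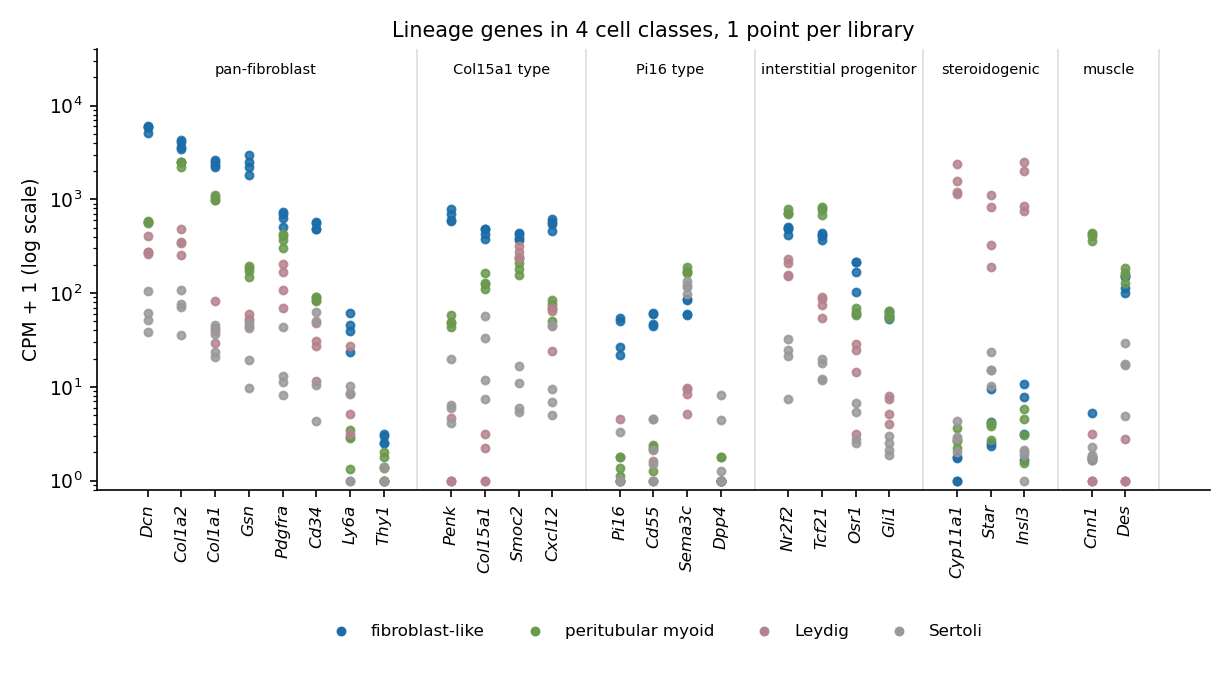
Levels of lineage genes (CPM + 1, log axis) in 4 cell classes, with 1 point for each class in each of the 4 libraries, in blocks of gene lists. The fibroblast-like points lie above the other classes for *Dcn*, *Col1a1*, *Gsn* and *Penk*, overlap or lie below the peritubular myoid points for *Nr2f2* and *Tcf21*, and lie near 1 for *Cyp11a1* and *Cnn1*.

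The 20 leading genes outside the rule were ranked by the ratio of their wild-type level to the highest wild-type level in any other class. Because the cells were chosen by expression, these ratios are descriptive and carry no test. *Mfap5* (chromosome 6, 122505845 to 122529290), a microfibril protein of elastic fibres, was at 382, 397, 411 and 339 CPM, and its wild-type mean was 78.9 times that of the next class, germ cells. *Dlk1* (chromosome 12, 109452823 to 109463336) followed with a ratio of 63.4. *Gsn* (chromosome 2, 35256380 to 35307892) and *Penk* (chromosome 4, 4133531 to 4138819) had ratios of 13.9 and 13.5 over peritubular myoid cells. *Penk* encodes proenkephalin, the precursor of the enkephalin opioid peptides, and was at 593, 689, 797 and 603 CPM.

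Several of the leading genes act at the cell surface or in the matrix. *Entpd2*, which encodes an enzyme that breaks down extracellular ATP, was at 399, 378, 422 and 331 CPM, 13.3 times the Sertoli level. *Thbs3* and *Thbd* encode thrombospondin 3 and thrombomodulin, and their ratios were 13.0 and 8.79. *Dcn* (chromosome 10, 97479609 to 97518143) had a ratio of 9.44, and its annotated end lies 46984 bases from the start of *Lum*. *Efemp1*, *Matn2*, *Ecm2* and *Cd248*, all genes of matrix or matrix-binding proteins, had ratios of 9.07, 4.85, 6.54 and 6.43.

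Other genes of the 20 encode signalling proteins. *Inhba*, the beta A subunit of activins and inhibins, was at 158, 181, 210 and 188 CPM and 8.56 times its level in Leydig cells. *Nbl1*, an antagonist of bone morphogenetic proteins, was at 279, 206, 261 and 156 CPM, with a ratio of 6.08. *Nrk*, an X-linked kinase gene, was at 1104, 1380, 1379 and 1269 CPM, with a ratio of 5.05. The remaining 5 leading genes were *Tppp3* (8.44), *Meg3* (6.71), *Plac8* (4.85), *S100b* (4.39) and *Rian* (4.31), with their ratios in parentheses.

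**Figure D2:**
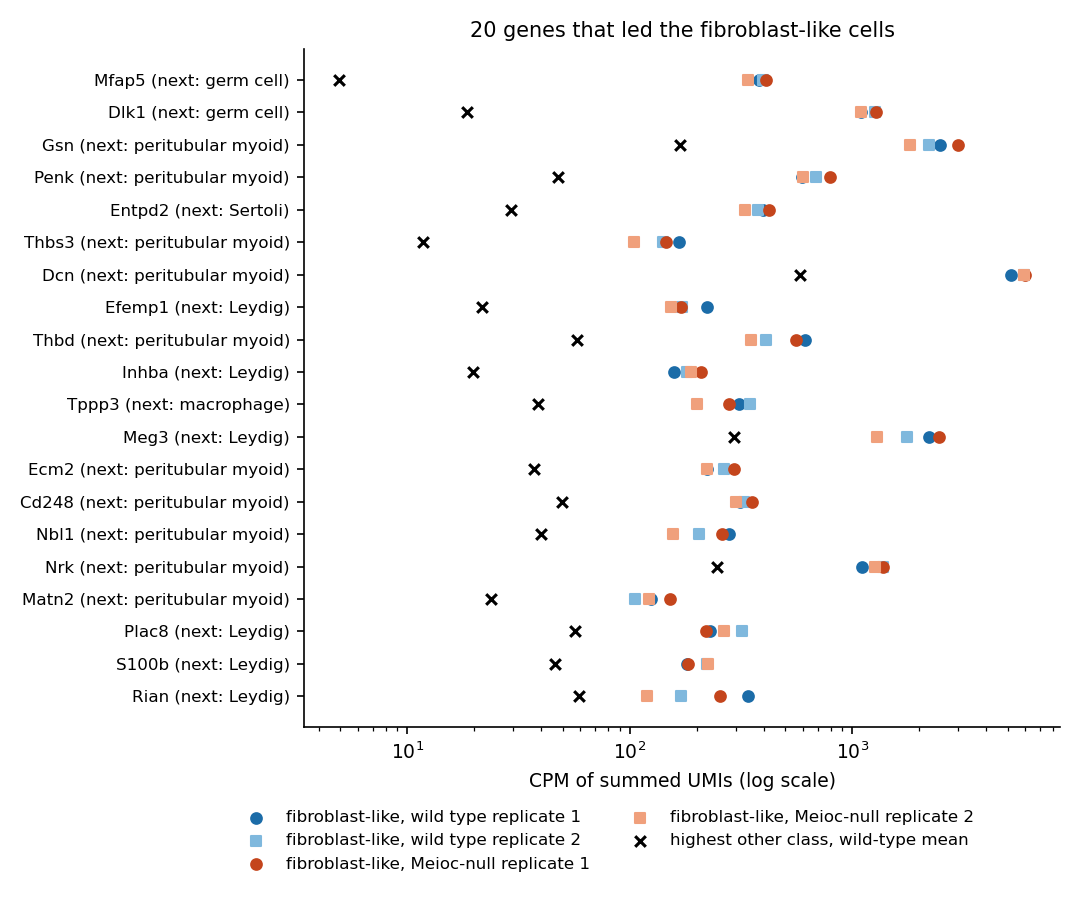
CPM of summed UMIs (log axis) for the 20 genes with the largest ratio of the wild-type mean in fibroblast-like cells to the highest wild-type mean of another class. Circles and squares are replicates 1 and 2 of each genotype in fibroblast-like cells and crosses are the highest other class, which is named beside each gene. The 4 libraries lie close together for *Dcn* and *Mfap5* and farthest apart for *Rian* (120 to 339 CPM), and the gap to the cross narrows from 78.9 times for *Mfap5* to 4.31 times for *Rian*.

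Against peritubular myoid cells, 128 of 6740 genes (1.9%) were at least 4-fold higher in fibroblast-like cells in all 4 libraries and 177 (2.63%) were at least 4-fold lower. Against Leydig cells the counts were 303 of 6789 (4.46%) and 184 (2.71%). The 6740 and 6789 genes are those with a mean of at least 20 CPM in either class.

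*Dlk1*, *Meg3* and *Rian* lie in 1 imprinted cluster on chromosome 12. Imprinted genes are expressed from 1 parental copy, and many of them act on growth before and after birth. *Dlk1* ends 77664 bases before the start of *Meg3* (109541001 to 109571726), and *Meg3* ends 32213 bases before the start of *Rian* (109603940 to 109661716). A list of 17 imprinted genes, drawn up after these levels were seen, was therefore described without a test. In wild-type fibroblast-like cells 14 of the 17 reached 20 CPM, and 13 of those 14 were higher than in peritubular myoid cells. *Meg3*, a noncoding RNA, was at 2201, 1765, 2442 and 1297 CPM. *Igf2*, a growth factor of fetal tissues, was at 231, 215, 281 and 184 CPM, against wild-type means of 61.6 CPM in peritubular myoid cells and 12.8 CPM in Leydig cells. *Peg3*, which encodes a zinc-finger protein, was at 525, 682, 735 and 730 CPM. *Cdkn1c*, an inhibitor of the cell cycle, was at 95.5, 120, 141 and 150 CPM. *Zim1*, beside *Peg3* on chromosome 7, was at 48.9, 77.9, 70.3 and 72.2 CPM against 4.6 CPM in peritubular myoid cells. *Peg10* and *Nnat* stayed below 11 CPM in every library, and *Mirg*, a further RNA of the chromosome 12 cluster, had a wild-type mean of 19.4 CPM. *H19* was the 1 exception among the 14, at 21.4 to 32.0 CPM and with a wild-type mean of 24.0 CPM against 26.8 CPM in peritubular myoid cells.

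Fibroblasts of many mouse organs fall into a *Pi16*-type, found around larger vessels and in fascia, and a *Col15a1*-type, found within the tissue. All 7 genes of that list exceeded 100 CPM in wild type, and they summed to 3364, 3635, 4012 and 3635 CPM. Peritubular myoid cells summed to 3237 CPM for the same list, and 4 of the 7 genes were higher in fibroblast-like cells. Endothelium summed to 6339 CPM, above the fibroblast-like cells. *Col15a1*, a collagen of the basement-membrane zone, was at 373, 426, 486 and 480 CPM. The chemokine gene *Cxcl12* was at 459, 617, 574 and 549 CPM, and *Smoc2*, a calcium-binding matrix gene, was at 431, 372, 435 and 390 CPM. The 8 *Pi16*-type genes summed to 332, 227, 272 and 193 CPM, against 247 CPM in peritubular myoid cells and 1431 CPM in endothelium, and none of them reached 100 CPM in fibroblast-like cells. *Pi16* itself was at 49.6, 25.3, 53.3 and 20.9 CPM, and *Dpp4* was at 0 in all 4 libraries. In thinned cells, *Pi16* was detected in 12.1, 6.51, 11.2 and 2.26% of the cells, and in 25.8, 14.2, 22.4 and 7.52% without thinning. It was detected in 0.200 to 0.733% of thinned germ cells and in at most 0.395% of thinned peritubular myoid cells. *Col15a1* was detected in 60.5, 62.7, 74.8 and 72.2% of thinned cells, and 8, 5, 9 and 2 cells held a UMI of both genes, so cells with *Pi16* were not a group without *Col15a1*.

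Genes that mark interstitial progenitors of the fetal and postnatal testis were present, but not above the level of peritubular myoid cells in each case. Of the 15 genes, 12 reached 20 CPM and 6 of those 12 were higher than in peritubular myoid cells. *Tcf21*, a transcription factor of mesenchymal progenitors, was at 434, 407, 365 and 417 CPM, with a wild-type mean of 421 CPM against 801 CPM in peritubular myoid cells. *Nr2f2*, the nuclear receptor COUP-TFII, had wild-type means of 446 and 707 CPM in the same classes. *Osr1*, a zinc-finger gene of early mesoderm, was at 102, 214, 168 and 214 CPM against 58.5 CPM in peritubular myoid cells. *Nr5a1*, the steroidogenic factor SF-1, was at 38.9, 26.6, 26.6 and 30.5 CPM, against a wild-type mean of 103 CPM in Leydig cells.

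The matrix genes described what the cells build. In wild type the 13 fibrillar and microfibril collagens summed to 10715 and 11222 CPM, against 5659 CPM in peritubular myoid cells, and 9 of the 10 collagens at 20 CPM or more were higher in fibroblast-like cells. The small leucine-rich proteoglycans without the rule's *Lum* were carried by *Dcn*, *Bgn* (691, 569, 827 and 601 CPM), *Ogn* (370, 320, 366 and 376 CPM) and *Ecm2*. Basement-membrane genes were shared with peritubular myoid cells, with sums of 9648 and 9430 CPM in the wild-type libraries against 9310 CPM. Of the 14 genes 9 were higher in fibroblast-like cells. *Col4a1*, a chain of collagen IV, had a wild-type mean of 712 CPM against 1574 CPM in peritubular myoid cells, and *Nid2*, a linker between laminin and collagen IV, had 110 CPM against 30.0 CPM. Of 19 elastic-fibre genes at 20 CPM or more in either class, 10 were higher in fibroblast-like cells. *Eln*, the elastin gene, was at 191, 149, 233 and 169 CPM against 1422 CPM in peritubular myoid cells, whereas *Ltbp4*, which helps elastin to deposit, was at 1154, 1024, 1085 and 960 CPM against 793 CPM.

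Matrix turnover was represented by proteases and their inhibitors. *Adamts5*, an aggrecan-cleaving protease, was at 1995, 1993, 2214 and 2338 CPM, against a wild-type mean of 926 CPM in peritubular myoid cells and at most 28.2 CPM in the other classes. *Timp2*, an inhibitor of metalloproteases, was at 751, 761, 804 and 780 CPM. *Serpinf1*, which encodes the antiangiogenic factor PEDF, was at 468, 467, 499 and 576 CPM. *Mmp3* was not detected in any library, and *Pcolce*, an enhancer of procollagen processing, was higher in Leydig cells (567 CPM) than in fibroblast-like cells (424 CPM).

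Secreted signals included the insulin-like growth factor family, ligands and binding proteins. Of 10 such genes 8 reached 20 CPM, and all 8 were higher than in peritubular myoid cells. *Igf1*, which acts on Leydig and Sertoli cells, was at 1044, 1191, 1494 and 1574 CPM, against wild-type means of 463 CPM in peritubular myoid cells and 4.5 CPM in Leydig cells. The binding proteins *Igfbp6* (2968, 2440, 2482 and 2098 CPM) and *Igfbp7* (2140, 2548, 2619 and 2825 CPM) were also abundant, while *Igfbp2* was below 11 CPM and had a wild-type mean of 316 CPM in Leydig cells. Among 39 growth factors and chemokines, 14 reached 20 CPM. *Kitl*, the stem cell factor that acts on differentiating spermatogonia, was at 185, 183, 225 and 177 CPM, below the wild-type mean of 216 CPM in Sertoli cells. *Gdnf*, the factor for undifferentiated spermatogonia, was at 1.5, 0, 0 and 0 CPM, against 29.4 CPM in peritubular myoid cells. *Tgfb2* was at 74.8, 79.2, 88.5 and 93.8 CPM and *Csf1*, a growth factor of macrophages, at 114, 90.5, 112 and 105 CPM.

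The receptor side of several pathways was measured too. *Ptch1*, the Hedgehog receptor and target, was at 305, 186, 182 and 197 CPM, against 754 CPM in peritubular myoid cells, while the Sertoli-cell ligand gene *Dhh* was at 9.2, 3.3, 3.2 and 0 CPM. *Gli1*, the transcription factor that Hedgehog signals induce, had close wild-type means of 54.5 and 58.0 CPM in the 2 classes. The glucocorticoid receptor gene *Nr3c1* was at 209, 268, 285 and 252 CPM, against 108 CPM. Receptors of the gonadotropins were near 0, with *Lhcgr* at 0 to 2.3 CPM and *Fshr* at 0 to 2.3 CPM. Among 21 genes of Wnt signalling, *Wnt6* was at 280, 233, 246 and 240 CPM and *Wnt5a* at 107, 114, 114 and 139 CPM. The R-spondin gene *Rspo1* reached only 16.0 to 20.1 CPM, and its wild-type mean was at most 0.9 CPM in the other somatic classes. Some of those classes were small. Wild type replicate 1 held 13 endothelial cells (113022 UMIs), 25 macrophages (295019 UMIs) and 36 Leydig cells (572442 UMIs), so levels this low are not resolved there.

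Retinoid, complement and lipid genes completed the profile. *Cyp26b1*, which breaks down retinoic acid, was at 711, 421, 578 and 623 CPM, below the 1776 CPM of peritubular myoid cells. *Rarres2*, which encodes the attractant chemerin, was at 566, 628, 563 and 658 CPM, and *Aldh1a1* (199, 95.9, 136 and 144 CPM) stayed far below its 4098 CPM in Leydig cells. *Serping1*, the inhibitor of complement C1, was at 617, 589, 776 and 640 CPM, against 241 CPM in peritubular myoid cells. Complement *C3* itself was at no more than 2.1 CPM. *Lpl*, the lipoprotein lipase gene, was at 105, 103, 87.4 and 78.2 CPM, against 4.7 CPM in peritubular myoid cells and 456 CPM in macrophages. *Gpx3*, a secreted glutathione peroxidase, was at 42.8, 41.9, 39.4 and 52.1 CPM. Its wild-type means in the other classes were at most 2.8 CPM, although the small classes named above resolve such levels poorly. *Pparg*, the adipocyte regulator, stayed at 12.8 to 16.0 CPM.

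The cells differed widely from each other in immediate-early and heat-shock transcripts, which rise in many cell types within minutes of enzymatic dissociation. The 20 genes of this list summed to 23761, 19323, 23482 and 21831 CPM, a level near the 19851 CPM of wild-type peritubular myoid cells. Cell by cell, the list took medians of 251, 144, 196 and 215 of every 10000 UMIs, with ranges of 0 to 781, 3.0 to 616, 3.2 to 717 and 3.5 to 573. In each library the cells spread from a low group to a high group: 32, 52, 40 and 29 cells (25.6, 30.8, 37.4 and 21.6%) had fewer than 50 per 10000, and 63, 62, 47 and 58 cells (50.4, 36.7, 43.9 and 43.3%) had more than 250. *Fos*, an immediate-early transcription factor, was at 3194, 3691, 4219 and 4436 CPM. *Klf4*, a zinc-finger factor, was at 2435, 1573, 2001 and 1585 CPM and had a wild-type mean of 474 CPM in peritubular myoid cells.

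Unsupervised clustering of the 535 cells gave 5 clusters at resolution 0.5, 2 at 0.3 and 9 at 0.8. Clusters were numbered by falling median of the stress list, which was 384, 302, 163, 23.6 and 23.1 per 10000. Clusters 1, 2 and 3 held 117, 126 and 114 cells. *Btg2*, *Zfp36* and *Dnajb1* led cluster 1, and *Atf3*, *Mfap5*, *Ccn1* and *Crip1* led cluster 2. *Mfap5* had a UMI in 84.1% of the thinned cells of cluster 2 against 43.7% of the other cells. The *Pi16*-type list took a median of 3.28 of 10000 UMIs in cluster 2, against 0.86 to 2.39 in the other clusters. The *Col15a1*-type list was lowest there, at a median of 30.7 against 33.6 to 39.4, and neither difference was tested. Cluster 3 was led by *Mdk*, a heparin-binding growth factor gene, and *Txnip*. Cluster 5, with 163 cells, was led by genes whose shares differed by under 19 points from the rest (*Golim4*, in 54.9% against 36.7%). *Dcn* was at 4317 to 6601 CPM and *Col1a1* at 1853 to 2845 CPM across the 5 clusters. Stress genes led clusters 1 and 2, and some of them differed between the batches, as described below, so cluster sizes were not compared between libraries.

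Cluster 4 was a small group of 15 cells led by proliferation genes. *Pclaf*, a DNA-replication clamp partner, had a UMI in 73.3% of its thinned cells and in 0.579% of the others, and *Top2a* and *Mki67*, both of proliferating cells, in 66.7% and 60.0% against 5.21% and 2.90%. The proliferation list took a median of 37.0 of 10000 UMIs there and 1.40 to 2.01 in the other clusters. It held 1, 5, 5 and 4 cells of the libraries. In thinned cells 7, 5, 7 and 4 fibroblast-like cells (5.65, 2.96, 6.54 and 3.01%) had at least 2 UMIs of the G2 and M phase genes of the list.

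Transcripts of Sertoli cells and germ cells were also counted in the fibroblast-like cells. The 8 Sertoli genes summed to 655, 286, 428 and 246 CPM, against 7877 CPM in wild-type Sertoli cells. The 44 cells with at least 6 UMIs of the list (15, 7, 10 and 12 per library) held 77.4, 49.2, 56.2 and 30.0% of its UMIs, so most of them lay in few barcodes in wild type replicate 1 and not in *Meioc*-null replicate 2. In wild type replicate 1, a single barcode with 71276 UMIs, 5.44% of the library's fibroblast-like UMIs, held 513 Sertoli UMIs, 5 UMIs of the rule's marker genes and 11 of *Dcn*. The 13 germ-cell genes summed to 273, 151, 128 and 84.9 CPM against 6089 CPM in wild-type germ cells. *Ldhc*, *Fabp9* and *Piwil1*, genes of pachytene spermatocytes, had 37, 20 and 26 UMIs in wild type replicate 1, 7, 18 and 5 UMIs in wild type replicate 2 and 0 in both *Meioc*-null libraries, where a count of 0 allows up to 3.20 and 2.23 CPM. In 1 cell of *Meioc*-null replicate 1, haemoglobin genes held 2852 of the 2910 UMIs that all the fibroblast-like cells had. The part of free RNA and of mixed barcodes in these counts was not tested.

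**Figure D3:**
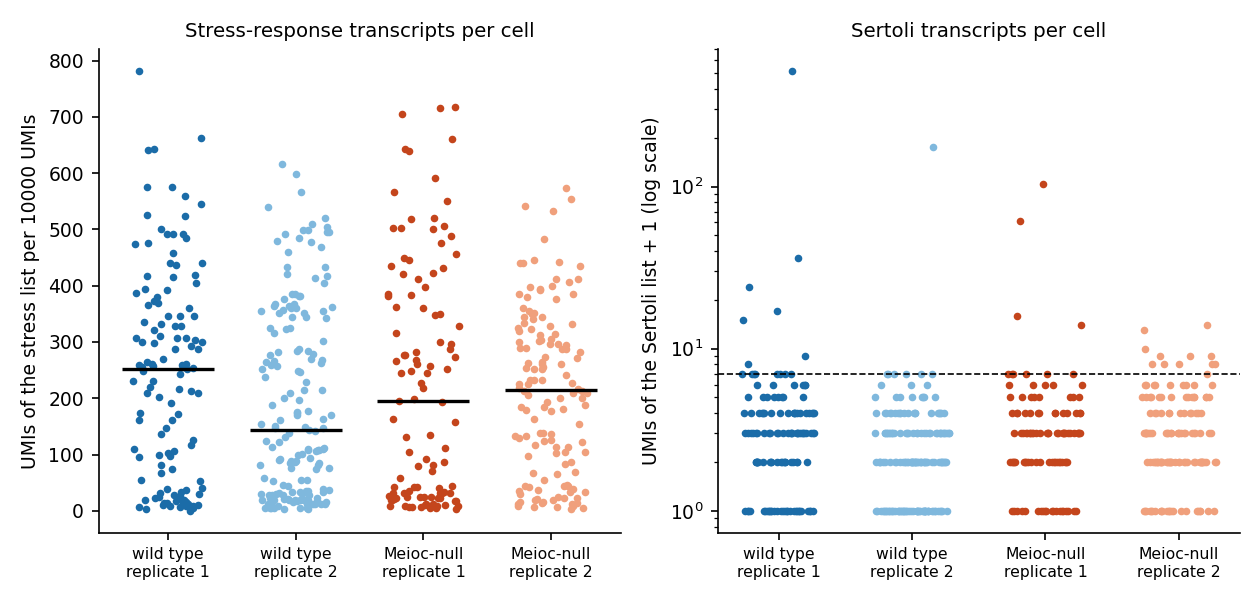
Each point is 1 fibroblast-like cell, by library. On the left, UMIs of the 20 stress genes per 10000 UMIs, with the library median as a line (251, 144, 196 and 215). On the right, UMIs of the 8 Sertoli genes plus 1 on a log axis, with a dashed line at 6 UMIs. Cells spread from near 0 to over 570 stress UMIs per 10000 in every library, and 1 barcode of wild type replicate 1 holds 513 Sertoli UMIs.

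The fibroblast-like cells made up 1.97, 1.99, 1.42 and 1.86% of the kept barcodes, with exact 95% binomial intervals of 1.65 to 2.35, 1.70 to 2.31, 1.16 to 1.71 and 1.56 to 2.20% that cover counting error only. The mean was 1.98% ± 0.0114 (SD, n = 2) in wild type and 1.64% ± 0.311 (SD, n = 2) in *Meioc*-null mice. The difference was 0.344 percentage points, 0.556 within batch 1 and 0.132 within batch 2. A two-sided exact permutation test over the 4 libraries gave p = 0.333, the smallest value that 2 libraries against 2 allow, so this test cannot place the difference beyond the spread between libraries. Without *Meioc*-null replicate 1 the difference was 0.124 points. A mitochondrial limit of 5% left fewer barcodes as the denominator, and the shares were then 5.90, 6.57, 5.31 and 6.77%. On that larger scale the difference was 0.195 points between the means and -0.196 within batch 2. Most kept barcodes are germ cells, and the germ cells differ between the genotypes, so the share was also taken among barcodes with at most 2 *Dazl* UMIs. It was then 7.92, 11.2, 6.48 and 8.43%, and the groups overlapped (p = 0.667, exact permutation test).

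Between the genotypes, 0 of 4510 genes (0%) were called in fibroblast-like cells by edgeR's quasi-likelihood test at a Benjamini-Hochberg adjusted p under 0.05. Without wild type replicate 2 the count was 25. At an unadjusted p under 0.05 there were 115 genes (2.55%), and DESeq2 gave 0 calls and 26 such genes. These fits had no term for the batch, although libraries are paired by it. With the replicate number as a block in edgeR, 254 of the 4510 genes had an unadjusted p under 0.05. That limit is not corrected for the number of genes tested, and 3 genes were called at the adjusted one, as described below. The CPM of the genotypes did not overlap for 1243 genes (27.6%). Separated genotypes were thus common among the tested genes and do not single out a gene. Fold changes are wild type over *Meioc*-null on the log2 scale, and their median standard error was 0.22. Of the 1485 genes at 100 CPM or more, 15 had a fold change beyond 1.5-fold in either direction. With edgeR's own filter on low counts in place of the detection limit, the fit called 0 of 9411 genes in fibroblast-like cells, 19 of 12938 genes in peritubular myoid cells, 351 of 10953 in Sertoli cells and 2898 of 19161 in germ cells, classes with other cell numbers and depths, and the difference between classes was not tested.

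In the fit without the block, none of the gene lists held a gene called between the genotypes. *Clu*, on the complement list, was called with the block, as described below. The 3 tested *Pi16*-type genes had the median farthest from 0 among the fibroblast lists, 0.45, with 1 of them at an unadjusted p under 0.05. The 12 tested pan-fibroblast genes had a median log2 fold change of -0.05, the 7 *Col15a1*-type genes -0.10, the 10 fibrillar and microfibril collagens -0.05, the 13 basement-membrane genes -0.13 and the 8 insulin-like growth factor genes 0.06, beside 0.01 over all genes tested. Within the tested pan-fibroblast genes the changes ran from -0.31 to 0.26. The 20 stress genes had a median of -0.02, with a range from -0.56 to 0.53.

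With no gene called, 9 of the 10 genes with the smallest p are given as values (edgeR, all with adjusted p = 1.00). *Mcm4*, a subunit of the replicative helicase, was at no more than 33.6 CPM in wild type and at 54.3 and 51.4 CPM in *Meioc*-null cells (log2 fold change -0.81, SE 0.25), and *Olfml3*, a secreted olfactomedin-family gene, was at 117, 101, 160 and 168 CPM (-0.57, SE 0.18). Both were lower in the 2 wild-type libraries than in the 2 *Meioc*-null libraries. The other 7 were higher in both wild-type libraries: *Tuba3a* (50.4, 29.3, 23.4 and 13.4 CPM), *Sycp3*, *Acyp1*, *Prxl2a*, *Glipr2*, *Crip1* (239, 326, 207 and 156 CPM) and *Qpct*, with log2 fold changes of 0.67 to 1.17. *Sycp3* encodes a protein of the synaptonemal complex of meiotic cells. It was at 43.5, 34.6, 21.3 and 20.1 CPM in fibroblast-like cells, against a wild-type mean of 1223 CPM in germ cells. The germ-cell list as a whole, given above, was also higher in the wild-type libraries. *Tuba3a*, *Acyp1*, *Mcm4* and *Prxl2a* had higher wild-type means in germ cells too (873, 107, 95.1 and 63.8 CPM), and the part of germ-cell RNA in these differences was not tested.

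The study's own proteins were read at the transcript level. *Meioc* had 8, 11, 9 and 4 UMIs in the fibroblast-like cells (6.1, 7.3, 9.6 and 3.0 CPM), with a wild-type mean of 278 CPM in germ cells. Reads of this 3′ library are counted at the end of the transcript, and *Meioc*-null germ cells held *Meioc* UMIs as well, so these counts do not check the genotype labels. *Ythdc2* was at 13.7, 14.7, 8.5 and 14.2 CPM and *Rbm46* at 32.1, 31.9, 20.2 and 34.2 CPM. *Hspa2*, for which both genotypes carried 1 mutant allele, was at 42.0, 17.3, 38.4 and 19.4 CPM, higher in both libraries of batch 1 than in those of batch 2.

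**Figure D4:**
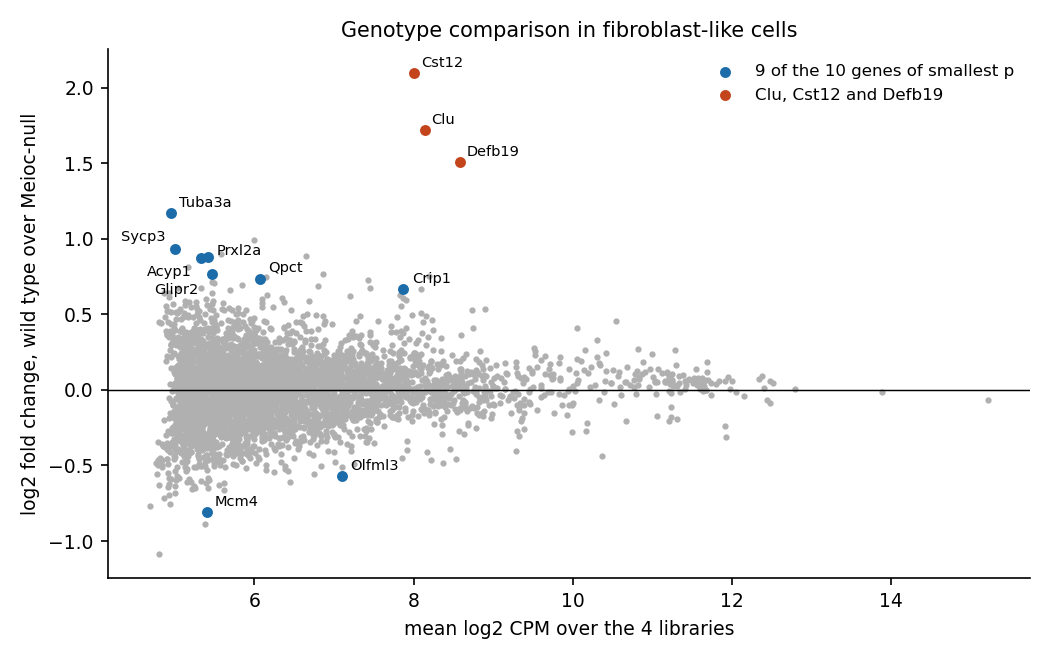
Log2 fold change of wild type over *Meioc*-null against mean log2 CPM over the 4 libraries, with 1 point for each of the 4510 genes tested in fibroblast-like cells. Blue points are 9 of the 10 genes with the smallest p and red points are *Cst12*, *Clu* and *Defb19*, with *Cst12* highest at 2.10. No point passed the adjusted threshold.

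With the replicate number as a block, taken to mark the littermate pairs, 3 genes were called. *Cst12*, *Defb19* and *Clu* had log2 fold changes of 2.16, 1.44 and 1.76 in that fit, with edgeR adjusted p of 0.000161, 0.000551 and 0.000296. *Clu*, which encodes clusterin, was at 700, 153, 232 and 38.7 CPM, and it was detected in 92.9 to 99.2% of thinned Sertoli cells. *Cst12*, a cystatin gene, was at 656, 166, 174 and 29.0 CPM, and *Defb19*, a defensin gene, was at 834, 290, 289 and 118 CPM. For each of the 3 genes wild type replicate 1 was far above the rest and *Meioc*-null replicate 2 was lowest. The 44 cells rich in Sertoli transcripts held 90.5, 76.3, 60.1 and 36.4% of the UMIs of the 3 genes, and wild type replicate 1 alone gave 2868 of the 4685 UMIs. Without those cells *Clu* was at 61.9, 29.9, 81.0 and 31.0 CPM, and *Cst12* at 53.6, 35.6, 79.7 and 18.4 CPM. *Defb19* was then at 136, 88.9, 153 and 83.7 CPM, and the blocked fit called 0 genes. The cells left out held 80.6% of the UMIs of the 3 genes over all libraries, so lower levels without them follow from the choice of cells.

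A comparison of the batches was added after the data were seen. Batch 1 was taken as replicate 1 of each genotype and batch 2 as replicate 2, and genotype was a term in the fit. It called 74 of 4510 genes (1.64%), 52 higher in batch 1 (1.15%) and 22 higher in batch 2. Other settings called between 27 genes (DESeq2) and 278. Litter and handling cannot be told apart here, since both change with the batch. Of the fixed lists other than the stress list, 5 genes were called: *Clu*, *Apoe*, *Mt2*, *Tex101* and *Aard*.

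Heat-shock genes were among those higher in batch 1. *Hspa1a*, an inducible HSP70 chaperone, was at 331, 58.6, 459 and 91.6 CPM, and both libraries of batch 1 lay above both of batch 2 (log2 fold change 2.36, SE 0.16, edgeR adjusted p = 1.47e-05). *Hspa1b* is a near-identical copy of *Hspa1a*, so reads may be split uncertainly between them, and it was at 135, 38.6, 226 and 41.7 CPM (2.08, SE 0.19). *Hspb1*, a small heat-shock protein, was at 173, 41.9, 156 and 40.2 CPM (1.96, SE 0.18), and *Hmox1*, the haem oxygenase of oxidative stress, was at 141, 23.3, 194 and 14.9 CPM (3.05, SE 0.24). Of the 20 genes of the stress list, 6 were called and all 6 were higher in batch 1, namely *Hspa1a*, *Hspa1b*, *Hspb1*, *Nr4a1*, *Atf3* and *Dnajb1*. *Fos*, *Jun* and *Egr1*, of the same list, were not called. *Fos* was at 3194 and 4219 CPM in batch 1 and at 3691 and 4436 CPM in batch 2.

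Genes outside the stress list were called as well. *Ifrd1*, *Emp1* and *Ugdh* were higher in batch 1 by 2.24, 1.63 and 1.70 on the log2 scale. *Ccn1*, a matricellular gene of Hippo signalling, was at 312, 125, 280 and 115 CPM (1.26, SE 0.15). *Meg3* and *Rian* of the imprinted cluster were both higher in batch 1, *Rian* at 339, 170, 255 and 120 CPM (1.00, SE 0.15) and *Meg3* by 0.57. *Thbd*, among the leading genes above, was at 614, 409, 558 and 351 CPM (0.59, SE 0.13). In the other direction, *Apoe*, the lipid carrier, was at 1316, 1686, 1467 and 2039 CPM (-0.46, SE 0.10), and *Fst*, which binds activin, was at 22.1, 69.2, 49.0 and 77.4 CPM (-1.15, SE 0.24). The ribosomal protein genes *Rpl35*, *Rps23* and *Rpl30*, whose pseudogenes can share their reads, were higher in batch 2, with log2 fold changes of -0.62 to -0.47.

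*Clu*, *Cst12*, *Defb19* and *Aard* were also called higher in batch 1. Without the cells rich in Sertoli transcripts, *Clu* was at 61.9 and 81.0 CPM in batch 1 and at 29.9 and 31.0 CPM in batch 2. Without those 44 cells the batch comparison called 90 genes of 4465 tested.

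**Figure D5:**
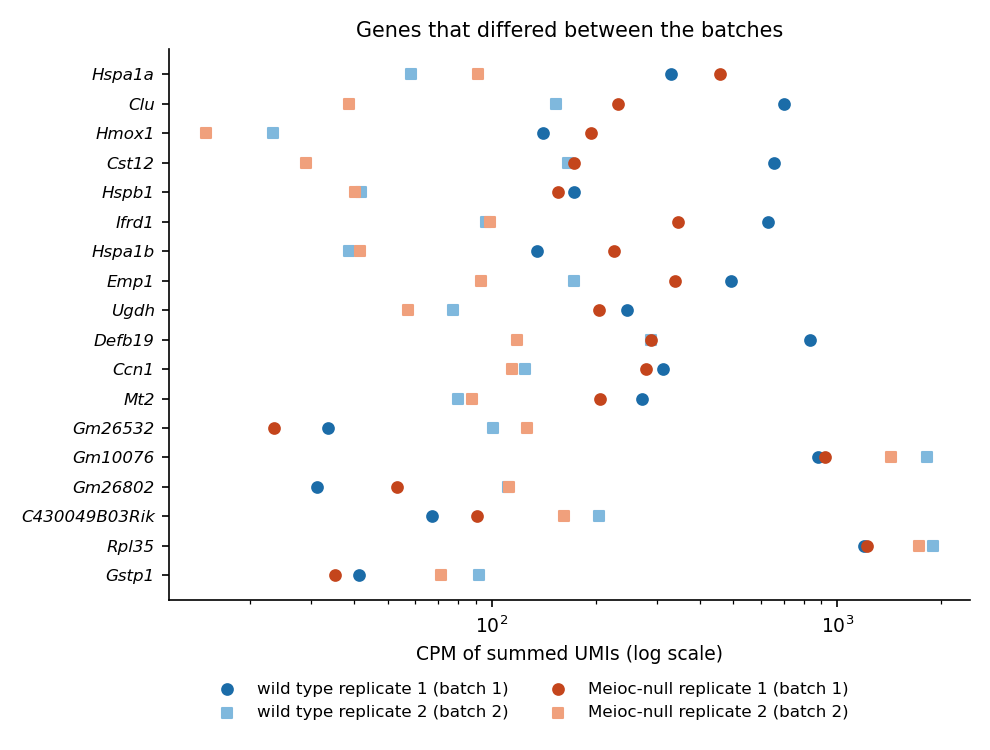
CPM of summed UMIs (log axis) in each library for the 12 genes with the smallest p among those higher in batch 1 and 6 of the genes of smallest p among those higher in batch 2. Blue shades are wild type and red shades are *Meioc*-null, with circles for batch 1 and squares for batch 2. For *Hspa1a* both circles (331 and 459) lie to the right of both squares (58.6 and 91.6), and for *Gm26532* both (33.6 and 23.4) lie to the left of the squares (101 and 127).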

How the data were processed

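Single-cell suspensions of P15 testes were captured by the authors with 10x Genomics Chromium 3′ v3.1 chemistry, and reads were counted with Cell Ranger 4.0.0 against its mouse reference (mm10, GRCm38). The deposited values are raw UMI counts per gene and barcode, with no normalization. Gene coordinates are those of GENCODE vM21, also on GRCm38.

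Barcodes were kept at more than 1000 genes and less than 10% mitochondrial UMIs, and the expression rule was then applied. The other classes were set by marker counts among kept barcodes. Germ cells had at least 3 *Dazl* UMIs, and every other class had at most 2. Peritubular myoid cells had at least 20 UMIs per 10000 of the 5 smooth-muscle genes, Leydig cells at least 20 per 10000 of 5 steroidogenic genes, Sertoli cells at least 5 UMIs of 5 genes, and endothelium and macrophages at least 4 UMIs. A class's levels of the genes that set it are no finding. Counts were summed per library and class, since cells are not replicates. Testing was limited to genes detected in 25% or more of the fibroblast-like cells of wild-type or of *Meioc*-null mice. It used edgeR 4.0.16 in R 4.3.3, with TMM scaling and a robust quasi-likelihood fit on genotype alone, and calls needed an adjusted p under 0.05 and an absolute log2 fold change over 0.1. The 9 genes of the rule and the mitochondrially encoded genes, 18 in all, stayed in the library sizes and were not tested. The edgeR fit on genotype alone was first run on simulated counts. The blocked fit, the batch fit, DESeq2 and the permutation test were not. DESeq2 1.42.0 was an alternative. Clusters came from scanpy 1.11.5 (1495 variable genes, 15 components, Leiden), and doublets were scored with its Scrublet. For shares of cells with a UMI, each cell was thinned to 3000 UMIs without replacement, and 1500 germ cells per library were used. Thinning left out 1 fibroblast-like cell of wild type replicate 1 and 1 of *Meioc*-null replicate 2. Of the 300, 242, 326 and 255 Sertoli cells, 159, 94, 174 and 128 were too shallow and were left out.

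The labels describe 2 batches of 1 littermate pair each, and a shared replicate number was taken to mark a pair. The deviations of wild type replicate 1 and *Meioc*-null replicate 1 from their genotype means correlated at r = 0.374 over 4510 genes, which are not independent replicates. The replicates are separate pups, 2 per genotype.

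Genes were named by 5 rules: the genes of the rule, genes of the fixed lists, the 20 leading genes among those of at least 100 CPM in both wild-type libraries, the 10 genes of smallest p because no gene was called, and *Meioc*, *Ythdc2*, *Rbm46* and *Hspa2*. *Cst12*, *Clu*, *Defb19*, the genes called between batches and the imprinted list were chosen after their values were seen. Some genes that these rules would name are not reported here. The rule, the lists and the tests were chosen with earlier results of these data known. Alternatives changed the UMI minimum, the number of marker genes, the depth, the mitochondrial limit, doublets, filters, normalization, the test and each library in turn.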

Additional observations from a re-analysis of the deposited data

Results flagged for a closer look

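Some barcodes that failed the filters on genes or mitochondrial UMIs met the expression part of the rule and so lie outside every comparison of the report. There were 6 in wild type replicate 1, 4 in wild type replicate 2 and 5 in *Meioc*-null replicate 2, above the 3 set as the limit for a flag. A further 2 were in *Meioc*-null replicate 1. Most were over the mitochondrial limit (5, 3, 3 and 2 of them, in the same order of libraries), with medians of 10.5, 13.0, 10.2 and 17.2% mitochondrial UMIs. For every 100 fibroblast-like cells they come to 4.8, 2.37, 3.73 and 1.87.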

How the results depend on the processing

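The mean share of fibroblast-like cells was higher in wild type under all 9 other forms of the rule or denominator. It was also higher without each library in turn. The differences ran from 0.124 to 2.09 points, the largest on the smaller denominator of barcodes with at most 2 *Dazl* UMIs. The libraries of the genotypes overlapped with that denominator and at a mitochondrial limit of 5%. The exact test could not pass its threshold in any of these settings. Without each library in turn the difference ran from 0.124 to 0.564.

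Between the genotypes, 16 of 20 alternatives also called 0 genes. Without wild type replicate 2, 25 genes were called (22 higher in wild type), and the range without each library was 0 to 25. Wild type is then batch 1 alone, so genotype and batch are partly mixed in the fit without wild type replicate 2. That fit assumes that the lone wild-type library varies like the *Meioc*-null pair. *Tuba3a*, *Prxl2a* and *Defb19* were called there, at 1.51, 1.14 and 2.06, as were *Aard*, *Tex101*, *Atf3* and *Nr4a1* of the fixed lists. Applying the rule to cells thinned to 3000 UMIs gave 3 calls (*Gsta2*, *Ccn2* and *Neat1*). With no filter on low counts 16 of 16699 genes were called, 15 of them higher in wild type, *Ldhc*, *Fabp9* and *Piwil1* among them, and only *Top2a* higher in *Meioc*-null cells. The causes of these changes were not tested.

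The replicate block called 3 genes of 4510, and 254 had an unadjusted p under 0.05, against 115 without it. With the 44 cells rich in Sertoli transcripts left out, the replicate block called 0.

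The log2 fold changes of *Clu*, *Cst12* and *Defb19* changed sign under several alternatives. They were -1.29, -0.85 and -0.64 with at least 6 marker UMIs, -0.41, -0.42 and -0.036 with thinned cells, -0.24, -0.28 and -0.39 at a mitochondrial limit of 5%, and -0.23, -0.033 and -0.041 without the Sertoli-rich cells. With the block and without those cells *Clu* was at -0.23, *Defb19* at -0.030 and *Cst12*, which kept its sign, at 0.033. The Sertoli-rich cells hold 36.4 to 90.5% of the UMIs of these genes, by library.

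The batch comparison called 276 genes with edgeR's own filter, 147 at 3 marker UMIs, 278 at 6, 259 at a mitochondrial limit of 5%, 118 with doublets removed, 177 when 1 marker gene was enough and 27 by DESeq2. In thinned cells 46 were higher in batch 1 and 55 in batch 2, against 52 and 22. The causes were not tested. With 107 to 169 cells and 2 libraries per genotype the median standard error of 0.22 leaves small changes undetectable.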
